A study of Mus musculus with 12 samples.

Results

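Interferon-stimulated genes were examined in RNA from brain hemispheres of 12 mice. The set held 49 genes, each found in the deposited count table by its symbol, out of 39756 listed genes. All 49 passed the filter on low counts that kept 17558 genes. The mice were young adult male C57BL/6J animals in 3 groups of 4. Sham mice had sham surgery. Vehicle mice had a transient occlusion of the middle cerebral artery (tMCAO) followed by reperfusion, and received saline. LJP mice had the same occlusion and received Laminaria japonica polysaccharide (LJP), a brown seaweed polysaccharide, by the intragastric route, beginning before surgery. The dose given to the sequenced mice and their time of sampling are not given in the labels. All 12 libraries carry the same batch label. Levels are given as CPM, the usual share of a gene in the counts of its library, scaled for library composition, with the mice of a group named in the order 1 to 4. The RNA came from a whole hemisphere, so a change in the number of cells of a type and a change in the RNA made per cell cannot be told apart.

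Interferons are secreted when a cell detects foreign or misplaced nucleic acid. Type I interferons bind IFNAR1 and IFNAR2, the kinases JAK1 and TYK2 are activated, and STAT2 then joins IRF9 in a complex that binds the interferon-stimulated response element (ISRE) in the promoters of target genes. Interferon gamma acts mainly through a different element, GAS. The targets include the sensors and transcription factors of the pathway itself, so that the response feeds on itself, and the inhibitor USP18, which closes it. Microglia, endothelial cells, astrocytes and infiltrating leukocytes can all express these genes in the injured brain.

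Promoter windows from RefSeq on GRCm38.p6, from 250 bases before to 50 bases after a start site, matched 38 of the 49 members. The ISRE was searched as GAAA, any 2 bases, GAAA, on both strands. It was present in a window of 21 of the 38 members (55.3%), against 3.99% of 27025 genes with a window. GAS, searched as TTC, any 3 bases, GAA, was present in 9 members (23.7%), against 9.55% of those genes. A match describes letters only, and short matches of different elements can overlap, as they do in Ifitm3 and Bst2. The stretches below were chosen because they carry ISRE matches of members described in the results, and not every such member is shown. Capitals mark the letters of the ISRE matches, and in the Irf1 stretch those of GAS; the overlapping GAS letters of Ifitm3 and Bst2 are not marked. Each is read 5′ to 3′ along the strand of its gene, and positions are counted from the first transcribed base, which is 0.
Isg15, chr4:156200867-156200904, minus strand: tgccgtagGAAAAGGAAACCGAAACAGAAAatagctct
Oas1a, chr5:120907522-120907553, minus strand: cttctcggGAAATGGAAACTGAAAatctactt
Oas3, chr5:120777717-120777742, minus strand: agggaggaGAAAACGAAAgtgaaggg
Ifit1, chr19:34640777-34640821, plus strand: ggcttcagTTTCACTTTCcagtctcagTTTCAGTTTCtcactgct
Ifit3, chr19:34583365-34583424, plus strand: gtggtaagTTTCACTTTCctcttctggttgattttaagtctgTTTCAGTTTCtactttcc
Ifit3b, chr19:34607761-34607820, plus strand: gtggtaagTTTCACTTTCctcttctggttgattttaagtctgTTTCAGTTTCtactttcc
Bst2, chr8:71537579-71537610, minus strand: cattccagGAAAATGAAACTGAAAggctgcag
Ifitm3, chr7:141010708-141010750, minus strand: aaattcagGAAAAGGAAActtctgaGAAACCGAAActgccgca
Rsad2, chr12:26456555-26456580, minus strand: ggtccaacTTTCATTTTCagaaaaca
Gbp2, chr3:142620596-142620621, plus strand: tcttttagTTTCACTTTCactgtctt
Igtp, chr11:58199514-58199539, plus strand: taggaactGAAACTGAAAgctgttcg
Irgm1, chr11:48871427-48871458, minus strand: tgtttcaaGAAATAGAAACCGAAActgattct
Irf1, GAS match, chr11:53769916-53769940, plus strand: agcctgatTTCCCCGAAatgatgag

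Isg15 held 3 overlapping ISRE matches, beginning 78 bases before its start. Ifit3 and its near-copy Ifit3b held the same 60 bases with 2 matches each, and reads of these genes may have been shared between them. In Ifitm3 both matches lay after the start, in the transcribed part. A match was present in 5 of the 5 interferon-inducible GTPases with a window, in 6 of 8 IFIT and membrane restriction factors, in 5 of 7 sensors, and in 1 of 5 transcription factors. Irf1 held a GAS match and no ISRE, and Irf7 held neither in its window. Rsad2 held a match, and its neighbour Cmpk2 did not.

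In Vehicle mice, almost the whole set was higher than in Sham mice. Of the 49 members, 45 rose and none fell at an adjusted p below 0.05, against 22.7% of all tested genes that rose and 17.3% that fell. The median log2 fold change of the members was 1.86, against a median of 3.54e-05 over all 17558 genes. In 39 members every Vehicle mouse lay above every Sham mouse, which held for 20.7% of all genes. The p200 DNA-binding proteins Ifi204 and Ifi207, the membrane protein Ifitm3, the dynamin-like GTPase Mx1, and Ifi27l2a rose most among members with more than 3 counts in the Sham group. The comparison answers what occlusion and reperfusion alone did to these genes.

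**Figure D1:**
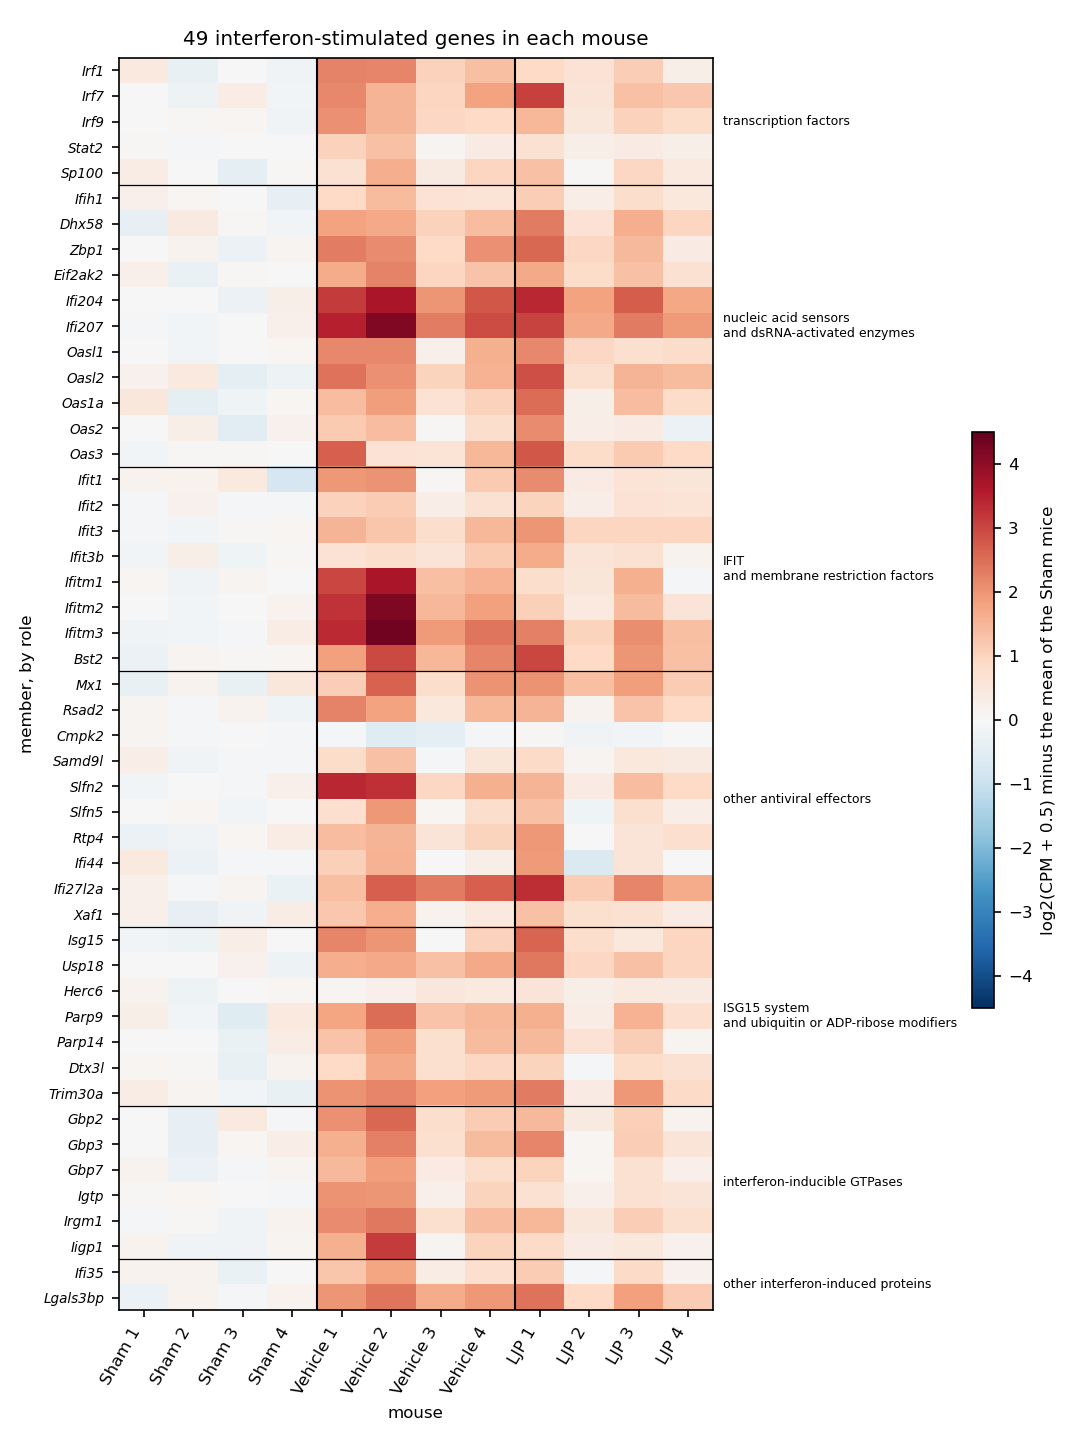
Colours give log2(CPM + 0.5) of each of the 49 members in each of the 12 mice, minus the mean of the 4 Sham mice, with members in rows by role and mice in columns. The Vehicle and LJP columns are red for nearly every member, deepest in Vehicle mice 1 and 2 and in LJP mouse 1, and Cmpk2 stays near 0.

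The 5 transcription factors of the set all rose. Irf1, which is induced by interferon gamma and binds ISRE-like sites, stood at 6.17, 3.43, 4.49 and 3.94 CPM in the Sham mice, at 22.5, 22.1, 9.69 and 12.0 in the Vehicle mice, and at 8.58, 7.16, 10.0 and 5.35 in the LJP mice. The Sham and Vehicle ranges did not overlap, and the rise was 3.69-fold (log2 fold change 1.88 ± 0.30, SE, adjusted p = 0.000825). Irf7, the factor that amplifies type I interferon production, stood at 1.96, 1.53, 2.52 and 1.71 CPM in Sham, at 10.3, 6.49, 4.14 and 7.97 in Vehicle, and at 19.8, 3.07, 5.44 and 5.07 in LJP. It was 3.74-fold higher in Vehicle (1.90 ± 0.52, adjusted p = 0.0123), and its highest level of all 12 mice was in LJP mouse 1. Irf9, which gives the complex with STAT2 its DNA binding, was at 7.73, 8.12, 8.33 and 6.84 CPM in Sham, at 33.9, 23.5, 15.2 and 14.9 in Vehicle, and at 22.9, 11.2, 16.3 and 14.0 in LJP. It rose 2.82-fold (1.5 ± 0.27, adjusted p = 0.00165). Stat2, its partner, rose less, by 1.74-fold (0.80 ± 0.22, adjusted p = 0.0124), from 20.9 to 22.4 CPM in Sham to 45.2, 54.5, 23.5 and 28.0 in Vehicle. In LJP mice Stat2 stood at 35.1, 26.2, 28.0 and 26.0 CPM. Sp100, a component of PML nuclear bodies, also rose.

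Among the 11 sensors and enzymes activated by double-stranded RNA, 10 rose, with a median log2 fold change of 2.02. Ifi204 was at 0.173, 0.163, 0.0548 and 0.311 CPM in Sham, at 5.49, 8.08, 2.15 and 4.10 in Vehicle, and at 6.54, 1.84, 3.97 and 1.73 in LJP. Its neighbour and relative Ifi207 was at 0.231, 0.218, 0.274 and 0.415 CPM in Sham, at 8.26, 13.4, 3.34 and 5.44 in Vehicle, and at 5.95, 2.05, 3.48 and 2.45 in LJP. Both genes were close to the detection floor in Sham mice (a floor of 3 counts is 0.129 to 0.173 CPM) and clearly measured in every injured mouse. The rises were 27.1-fold for Ifi204 (4.76 ± 0.63, adjusted p = 0.000289) and 26.1-fold for Ifi207 (4.71 ± 0.53, adjusted p = 0.000135). Eif2ak2, the kinase PKR, which halts translation on sensing double-stranded RNA, was at 8.65, 5.72, 7.62 and 7.26 CPM in Sham, at 24.4, 35.5, 14.5 and 18.2 in Vehicle, and at 24.8, 13.1, 18.8 and 11.8 in LJP, a 3.17-fold rise in Vehicle (1.66 ± 0.29, adjusted p = 0.00136). The cytosolic RNA sensor Ifih1 (MDA5), its relative Dhx58 (LGP2), the Z-nucleic acid sensor Zbp1, the oligoadenylate synthetases Oas1a and Oas3 and the related Oasl1 and Oasl2 rose as well. Oas2 did not pass the test (1.19 ± 0.59, adjusted p = 0.121). Oas3 had 3 counts over the 4 Sham mice together, so no fold is given for it; it was at 2.99, 0.344, 0.323 and 1.02 CPM in Vehicle.

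All 8 IFIT and membrane restriction factors rose. Ifitm1, Ifitm2 and Ifitm3 encode small membrane proteins that block virus entry. Ifitm3, the most abundant of them in Vehicle mice, was at 5.07, 5.18, 5.32 and 7.26 CPM in Sham, at 62.5, 124, 22.9 and 32.3 in Vehicle, and at 28.8, 11.9, 25.5 and 15.4 in LJP. Ifitm2 was at 4.90, 4.52, 4.93 and 5.60 CPM in Sham, at 51.4, 99.4, 14.9 and 19.2 in Vehicle, and at 10.9, 6.85, 14.3 and 7.69 in LJP. Ifitm1 was at 1.33, 1.04, 1.37 and 1.19 CPM in Sham, at 13.5, 21.7, 3.93 and 4.63 in Vehicle, and at 2.50, 2.05, 4.79 and 1.17 in LJP. All 3 shared a pattern of high levels in Vehicle mice 1 and 2, with means of those mice 3.39 to 4.42 times those of Vehicle mice 3 and 4. Their rises were 10.6-fold for Ifitm3 (3.41 ± 0.49, adjusted p = 0.000467), 9.27-fold for Ifitm2 (3.21 ± 0.52, adjusted p = 0.000923) and 8.88-fold for Ifitm1 (3.15 ± 0.57, adjusted p = 0.00154). Without Vehicle mouse 2 the log2 fold changes of Ifitm3, Ifitm2 and Ifitm1 were 2.77, 2.51 and 2.57. Tetherin, encoded by Bst2, and the RNA-binding proteins Ifit1, Ifit2, Ifit3 and Ifit3b rose with log2 fold changes of 0.86 to 2.39.

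Of the 10 other antiviral effectors, 8 rose. Slfn2, a schlafen protein of lymphoid and myeloid cells, was at 1.56, 1.69, 1.59 and 2.12 CPM in Sham, at 23.1, 21.4, 3.77 and 6.2 in Vehicle, and at 5.86, 2.40, 5.33 and 3.68 in LJP. It rose 7.81-fold (2.97 ± 0.53, adjusted p = 0.00155), again with Vehicle mice 1 and 2 far above the other two. Ifi27l2a was at 0.519, 0.327, 0.438 and 0.207 CPM in Sham, at 1.72, 5.11, 3.82 and 5.07 in Vehicle, and at 8.13, 1.43, 3.43 and 2.23 in LJP, a 10.4-fold rise in Vehicle (3.38 ± 0.59, adjusted p = 0.00132). It overlaps Ifi27 on the opposite strand by 6057 bases, and the library kit does not mark strand, so strand cannot assign reads of the shared bases. Rsad2, which encodes viperin, was at 1.27, 1.04, 1.32 and 0.933 CPM in Sham, at 7.26, 5.16, 1.78 and 4.15 in Vehicle, and at 4.18, 1.33, 3.43 and 2.51 in LJP, a 4.03-fold rise (2.01 ± 0.42, adjusted p = 0.00336). Its neighbour on chromosome 12, Cmpk2, a mitochondrial nucleotide kinase, went the other way without passing the test (-0.29 ± 0.12, adjusted p = 0.0603). Cmpk2 was at 27.9, 24.1, 26.1 and 24.7 CPM in Sham, at 24.0, 17.3, 18.8 and 23.9 in Vehicle, and at 26.8, 23.2, 23.4 and 25.5 in LJP. Mx1, Samd9l, Slfn5, Rtp4 and Xaf1 rose, and Ifi44 did not pass the test (1.49 ± 0.86, adjusted p = 0.181).

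In the ISG15 system and the ubiquitin and ADP-ribose modifiers, 6 of 7 rose. Usp18 removes ISG15 from proteins and inhibits the type I interferon receptor. It was at 0.750, 0.763, 0.932 and 0.570 CPM in Sham, at 3.36, 3.57, 2.58 and 3.56 in Vehicle, and at 5.95, 1.89, 2.61 and 1.95 in LJP. The Vehicle mice lay close together for this gene, and it rose 4.32-fold (2.11 ± 0.37, adjusted p = 0.00141). Trim30a, an inhibitor of NF-kappa B signaling, was at 1.90, 1.58, 1.26 and 1.04 CPM in Sham, at 7.26, 8.38, 6.35 and 6.74 in Vehicle, and at 9.13, 1.99, 6.96 and 3.01 in LJP, a 4.97-fold rise (2.31 ± 0.41, adjusted p = 0.00147). The partners Parp9 and Dtx3l, which form an ADP-ribosyltransferase and ubiquitin ligase complex, overlap by 558 bases on opposite strands. Parp9 was at 3.52, 2.56, 1.81 and 4.04 CPM in Sham, at 11, 18.9, 7.75 and 8.89 in Vehicle, and at 9.63, 3.73, 9.57 and 5.24 in LJP. Dtx3l was at 6.40, 6.16, 4.66 and 6.74 CPM in Sham, at 11.6, 20.5, 10.1 and 11.7 in Vehicle, and at 12.4, 5.57, 10.8 and 9.87 in LJP. They rose 3.90-fold (1.96 ± 0.38, adjusted p = 0.0021) and 2.25-fold (1.17 ± 0.27, adjusted p = 0.00506). Parp14 and the ubiquitin-like modifier gene Isg15 rose, and Herc6, the mouse ligase of ISG15, did not pass the test (0.35 ± 0.13, adjusted p = 0.0547).

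The 6 interferon-inducible GTPases, from families that take part in defence against intracellular pathogens, all rose, with log2 fold changes of 1.31 to 2.31. Irgm1 was at 6.52, 7.03, 6.03 and 7.51 CPM in Sham, at 31.4, 36.7, 11.4 and 18.6 in Vehicle, and at 19.8, 9.76, 15.3 and 11.4 in LJP. Igtp was at 4.44, 4.52, 4.16 and 3.99 CPM in Sham, at 19.1, 18.6, 5.06 and 9.16 in Vehicle, and at 7.18, 5.11, 7.23 and 6.63 in LJP. Gbp2 was at 2.83, 2.07, 3.95 and 2.64 CPM in Sham, at 13.2, 19.5, 5.17 and 6.84 in Vehicle, and at 8.49, 3.83, 6.42 and 3.23 in LJP. For all 3 genes Vehicle mice 1 and 2 held the highest levels of the 12 mice. The rises were 3.63-fold for Irgm1 (1.86 ± 0.33, adjusted p = 0.00136), 3.04-fold for Igtp (1.61 ± 0.34, adjusted p = 0.00339) and 3.90-fold for Gbp2 (1.96 ± 0.43, adjusted p = 0.00398). Iigp1, at 1.33, 0.981, 0.986 and 1.30 CPM in Sham, 4.49, 14.1, 1.29 and 2.80 in Vehicle, and 2.45, 1.64, 1.79 and 1.39 in LJP, rose 4.95-fold (2.31 ± 0.58, adjusted p = 0.00833) with overlapping ranges, since Vehicle mouse 3 lay below Sham mice 1 and 4. Without Vehicle mouse 2 its log2 fold change was 1.32 (adjusted p = 0.014). Gbp3 and Gbp7 also rose. Of the other 2 members, Lgals3bp, a secreted glycoprotein, was at 15.0, 20.4, 17.5 and 20.4 CPM in Sham, at 73.2, 98.8, 59.0 and 72.0 in Vehicle, and at 101, 34.7, 66.4 and 40.9 in LJP, a 4.13-fold rise (2.05 ± 0.29, adjusted p = 0.000442). Ifi35 was at 2.71, 2.67, 1.81 and 2.28 CPM in Sham, at 6.26, 9.24, 3.07 and 4.31 in Vehicle, and at 5.81, 2.15, 4.62 and 2.79 in LJP, a 2.42-fold rise (1.28 ± 0.37, adjusted p = 0.0161).

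Levels per kilobase of the gene length in the deposited table (RPKM) allow members to be compared with each other. In Vehicle mice Ifitm3 stood highest, at a mean of 93.4 RPKM, followed by Lgals3bp at 34.4, Ifitm2 at 33.4, Bst2 at 21.6 and Ifitm1 at 12.7 RPKM; Lgals3bp and Ifitm2 did not differ beyond the spread between mice. In Sham mice the order was led by Ifitm3 at 8.80, Lgals3bp at 8.32 and Cmpk2 at 7.46 RPKM, whose means lay closer together than the spread of Ifitm3 between mice. In LJP mice Ifitm3 (31.5 RPKM), Lgals3bp (27.6) and Bst2 (18.6) led.

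**Figure D2:**
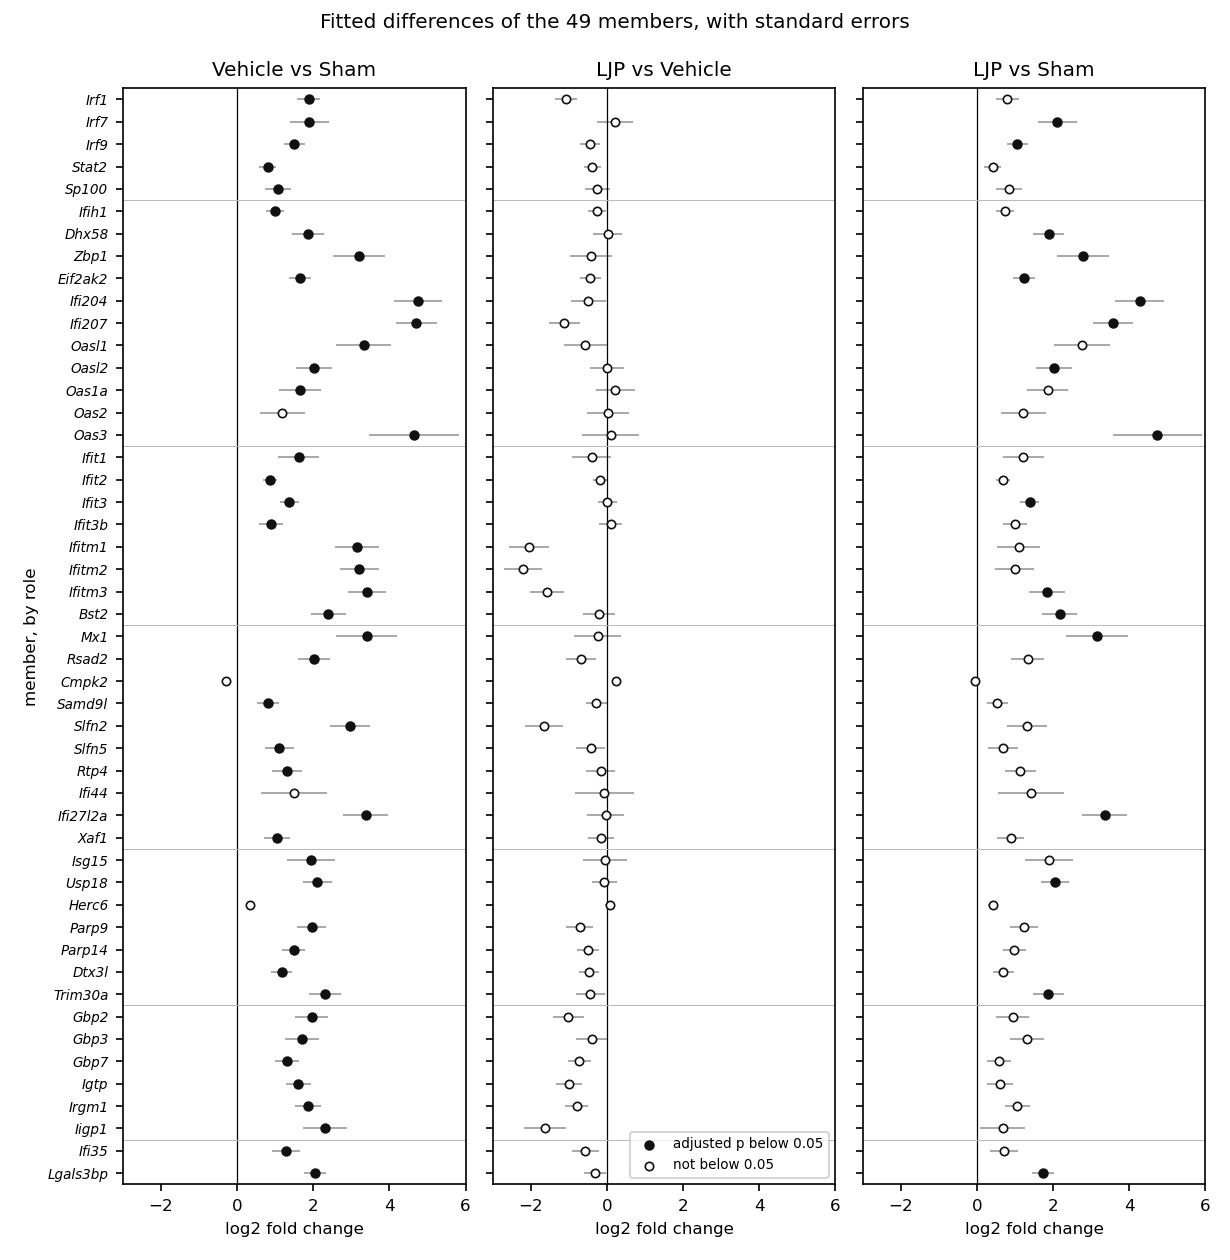
Points give the fitted log2 fold change of each of the 49 members in the 3 comparisons, bars give 1 SE, and filled points have an adjusted p below 0.05. In Vehicle vs Sham 45 points are filled, in LJP vs Vehicle none is, and in LJP vs Sham 17 are. Oas3 had 3 counts over the Sham mice, so its fitted values against Sham depend on the prior count.

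Between LJP and Vehicle mice, no member passed the edgeR test. Most members had lower values in LJP mice (39 of 49), with a median log2 fold change of -0.40 against -0.00174 over all genes. The lowest values were those of Ifitm2, Ifitm1, Slfn2, Iigp1 and Ifitm3, and of the role groups the GTPases had the lowest median. Oas1a, Oas2, Oas3, Oasl2, Irf7, Dhx58, Ifit3 and Ifit3b had values from 0.00 to 0.22. The comparison asks whether these genes differed between treated and untreated mice after occlusion. The LJP libraries also held less of a trace of airway transcripts, given below, which cannot be told apart from the treatment.

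The number of members with an adjusted p below 0.05 was 0 in either direction, against 0.0% of all genes higher and 0.0228% lower. At an unadjusted p below 0.05, 11 members were lower and 0 higher, against 17.4% and 12.3% of all genes. In 1 member, Ifitm2, every LJP mouse lay below every Vehicle mouse, against 5.91% of all genes. With DESeq2 7 members were called lower, Irf1, Ifitm1, Ifitm2, Ifitm3, Slfn2, Igtp and Iigp1, against 9.15% of all genes. The edgeR count was 12 without Vehicle mouse 3 (13.1% of all genes) and 5 without Vehicle mouse 4 (8.38%), and it was 0 without LJP mouse 1 (0.0224%). As shares of the set, the counts of 11, 7, 12 and 5 members lower come to 22.4%, 14.3%, 24.5% and 10.2%.

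Ifitm2 in LJP mice was 4.66-fold below Vehicle (-2.22 ± 0.50, adjusted p = 0.0678), with its LJP values between 6.85 and 14.3 CPM and its lowest Vehicle value at 14.9. Ifitm1 was 4.18-fold lower (-2.06 ± 0.53, adjusted p = 0.0678) and Ifitm3 2.97-fold lower (-1.57 ± 0.45, adjusted p = 0.0705). Without Vehicle mouse 2 the log2 fold changes of Ifitm2 and Ifitm3 were -1.52 and -0.94. The 3 Ifitm genes lie close together on chromosome 7 and are similar in sequence, so reads could be split between them. Slfn2 gave -1.66 ± 0.49 (adjusted p = 0.0729). Irf1 gave -1.09 ± 0.29 (adjusted p = 0.0678), and its overlap was slight, with LJP mouse 3 at 10.0 CPM and Vehicle mouse 3 at 9.69. The other 4 transcription factors ranged from -0.44 for Irf9 to 0.21 for Irf7.

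Each of the 6 GTPases had a lower mean in LJP, with log2 fold changes from -1.64 to -0.40 and a median of -0.90. Of them, 5 were lower at an unadjusted p below 0.05, against 17.4% of all genes. Iigp1 gave -1.64 ± 0.55 (adjusted p = 0.0916), or -0.66 (adjusted p = 0.297) without Vehicle mouse 2, and Igtp -1.0 ± 0.33 (adjusted p = 0.0877). Gbp2 gave -1.02 ± 0.41 (adjusted p = 0.126) and Irgm1 -0.80 ± 0.31 (adjusted p = 0.122). In the LJP mice Igtp varied little, between 5.11 and 7.23 CPM, and Vehicle mouse 3 at 5.06 CPM lay under that range.

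The sensors and double-stranded RNA enzymes were divided in sign, with 6 lower and 5 higher. Ifi207 gave -1.12 ± 0.41 (adjusted p = 0.105), and its neighbour Ifi204 gave -0.49 ± 0.46 (adjusted p = 0.48). Eif2ak2 gave -0.44 ± 0.28 (adjusted p = 0.299). In the ISG15 group Parp9 gave -0.72 ± 0.35 (adjusted p = 0.187), Dtx3l -0.48 ± 0.26 (adjusted p = 0.231), Trim30a -0.44 ± 0.38 (adjusted p = 0.435), and Usp18 -0.07 ± 0.33 (adjusted p = 0.902). Among the effectors Rsad2 gave -0.68 ± 0.39 (adjusted p = 0.253), Ifi27l2a -0.04 ± 0.48 (adjusted p = 0.963), and Cmpk2 0.24 ± 0.12 (adjusted p = 0.184). For Usp18, Ifi27l2a and Irf7 the sign depended on single mice.

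**Figure D3:**
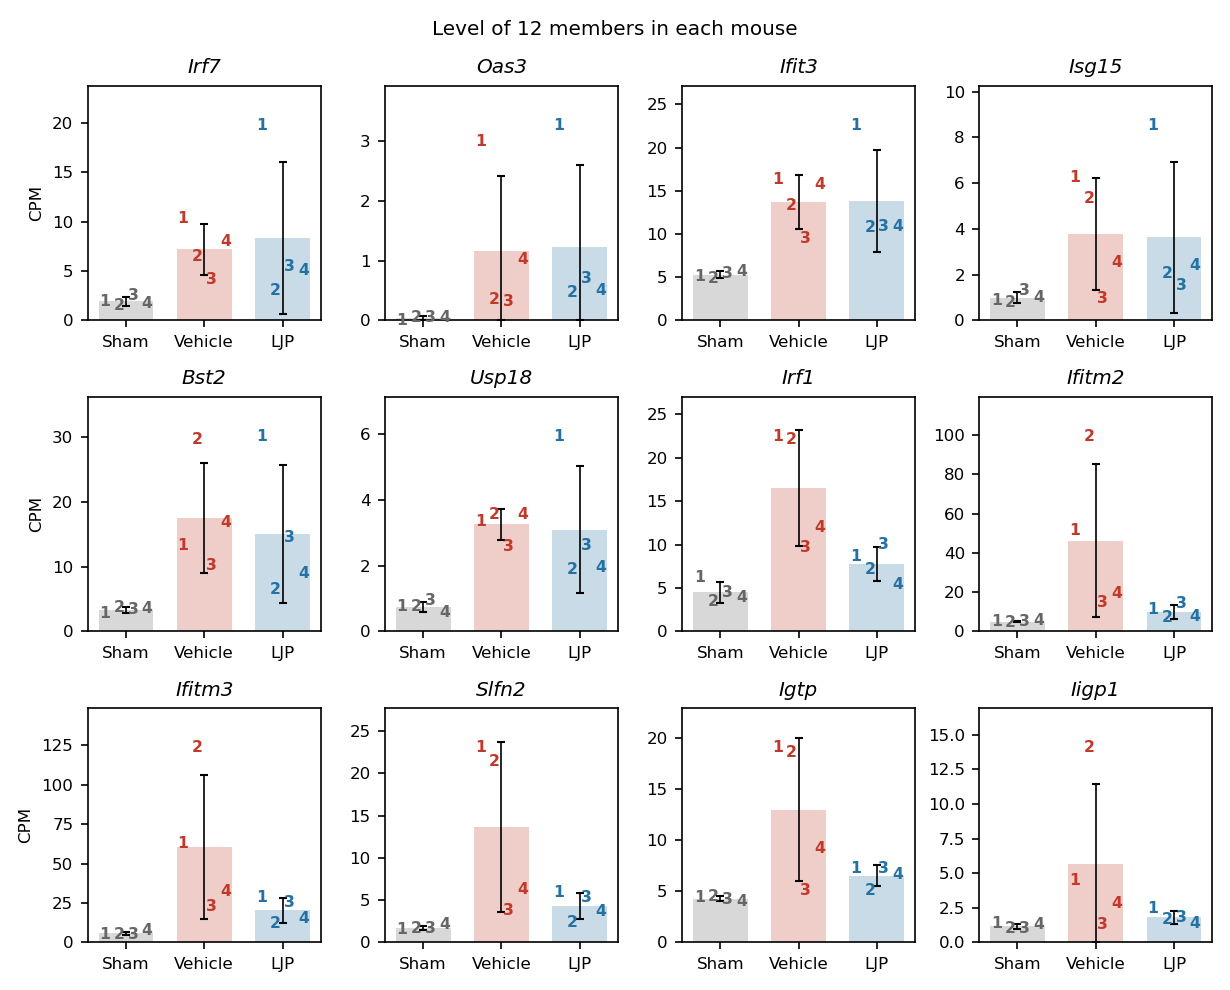
Numbers 1 to 4 mark the CPM of each mouse for 12 members, bars give the group mean and lines the SD (stopped at 0 below). In Irf7, Oas3, Ifit3, Isg15, Bst2 and Usp18 LJP mouse 1 is the highest of the 12 mice, and in Irf1, Ifitm2, Ifitm3, Slfn2, Igtp and Iigp1 the highest values are those of Vehicle mice 1 or 2; Oas3, Ifit3, Isg15 and Bst2 were chosen for the plot after their values were seen.

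The LJP mice differed among themselves. LJP mouse 1 was the highest of the LJP mice for 45 of the 49 members (91.8%), against 23.3% of all tested genes. Its level was over 1.5 times that of the next LJP mouse for 23 members, with a median ratio of 1.37 over the set. The 4 exceptions were Irf1, Ifitm1, Ifitm2 and Igtp, where LJP mouse 3 was highest. For 19 members LJP mouse 1 was the highest of all 12 mice: Irf7, Dhx58, Zbp1, Oasl2, Oas1a, Oas2, Oas3, Ifit1, Ifit3, Ifit3b, Bst2, Rtp4, Ifi44, Ifi27l2a, Isg15, Usp18, Herc6, Trim30a and Lgals3bp. Vehicle mouse 2 was the highest of all mice for 24 members, among them the Ifitm genes, the p200 genes Ifi204 and Ifi207, Stat2, Eif2ak2 and 5 of the 6 GTPases. Vehicle mouse 1 was the highest of all mice for Irf1, Irf9, Rsad2, Slfn2 and Igtp. Within its group, Vehicle mouse 2 was highest for 34 members (69.4%), against 36.0% of all tested genes.

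Some members of that list were looked at after their values were seen. Ifit3 was at 22.6 CPM in LJP mouse 1 and at 10.7, 10.9 and 10.9 in LJP mice 2 to 4, against 16.3, 13.3, 9.42 and 15.7 in the Vehicle mice. Isg15 was at 8.54 CPM in LJP mouse 1 and at 2.05, 1.52 and 2.40 in the others, against 6.26, 5.33, 0.969 and 2.53 in Vehicle. Oas3 was at 3.27 CPM in LJP mouse 1 and at 0.460, 0.707 and 0.502 in the others. In each of these genes the other 3 LJP mice lay close together and LJP mouse 1 stood alone. By role, the median ratio of LJP mouse 1 to the mean of the other LJP mice was largest in the sensors and double-stranded RNA enzymes (3.30) and smallest in the GTPases (1.62), with 1.66 in the transcription factors and 1.86 in the IFIT and membrane group.

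**Figure D4:**
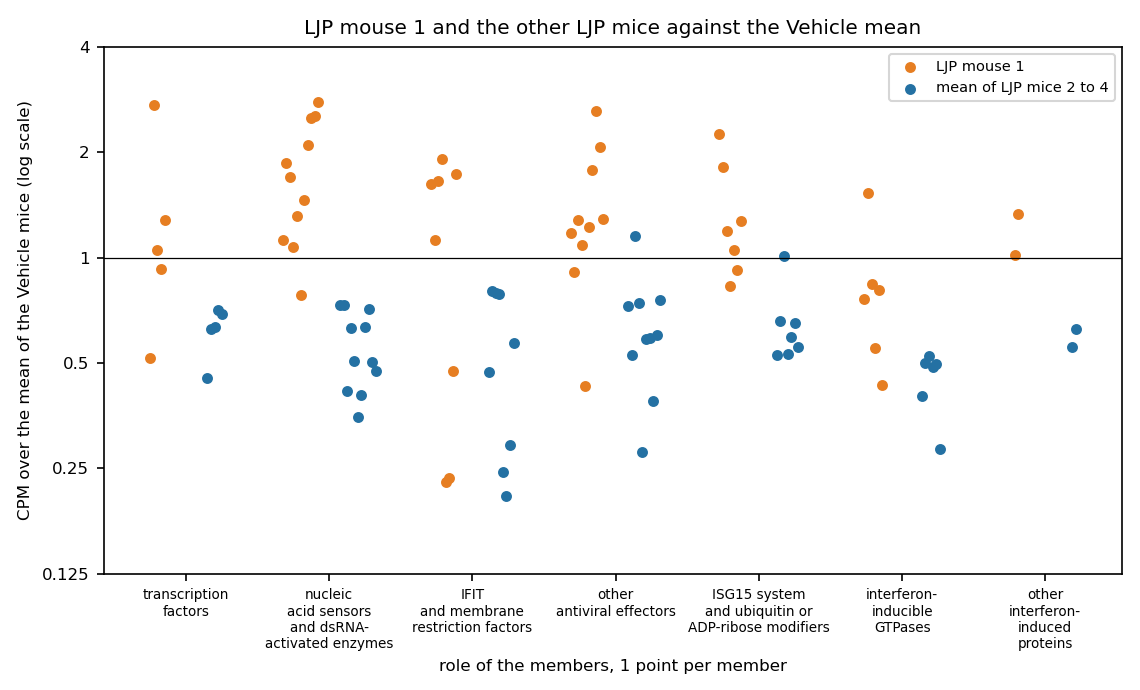
Each point is 1 member, placed at its CPM in LJP mouse 1 (orange) or its mean CPM in LJP mice 2 to 4 (blue) over the mean of the 4 Vehicle mice, on a log scale and by role. The blue points lie below 1 except for Cmpk2 and Herc6, while 34 of the 49 orange points lie above 1; the orange points far below 1 include Ifitm1 (0.228), Ifitm2 (0.235), Slfn2 (0.430) and Iigp1 (0.433).

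A mean over the 49 members of log2 CPM relative to the Sham mean gives 1 value per mouse. It was -0.08 to 0.07 in the Sham mice. Vehicle mice gave 2.03, 2.35, 0.95 and 1.59, LJP mice 2.08, 0.67, 1.37 and 0.87, and the groups overlapped widely. Over the 4 mice it was 1.73 ± 0.606 (SD) in Vehicle and 1.25 ± 0.628 in LJP. LJP mice 2 and 4 lay below every Vehicle mouse for 33 and 25 members, LJP mouse 3 for 2 and LJP mouse 1 for 3. The share of all genes for which they did so was not counted, so these numbers only describe the mice. Vehicle mouse 3 was the lowest Vehicle mouse for 44 members (89.8%), against 26.1% of all tested genes. The median log2 fold change of the members between LJP and Vehicle, -0.40 with all mice, was -0.81 without LJP mouse 1, -0.15 without Vehicle mouse 2, -0.17 without LJP mouse 2 and -0.23 without LJP mouse 4.

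Against Sham mice, 17 members were higher in LJP mice and none was lower, against 3.85% of all genes higher and 0.9% lower. The median log2 fold change of the members was 1.22. In 30 members every LJP mouse lay above every Sham mouse, against 12.9% of all genes. The comparison answers how much of the response was present in treated mice. It shares the Sham mice with the Vehicle comparison and the LJP mice with the LJP vs Vehicle comparison.

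The 17 members were Irf7 and Irf9, the sensors and enzymes Dhx58, Zbp1, Eif2ak2, Ifi204, Ifi207, Oasl2 and Oas3, the restriction factors Ifit3, Ifitm3 and Bst2, the effectors Mx1 and Ifi27l2a, and Usp18, Trim30a and Lgals3bp. Ifi204 was 19.3-fold (4.27 ± 0.64, adjusted p = 0.00249) and Ifi207 12.0-fold higher than in Sham (3.58 ± 0.53, adjusted p = 0.00249). Ifi27l2a was 10.2-fold higher (3.35 ± 0.59, adjusted p = 0.00622), Usp18 4.12-fold (2.04 ± 0.37, adjusted p = 0.00756) and Lgals3bp 3.31-fold (1.73 ± 0.29, adjusted p = 0.00461). Irf7 was 4.33-fold higher (2.11 ± 0.52, adjusted p = 0.0366), and it was not called without LJP mouse 1 (1.23, adjusted p = 0.0676), without LJP mouse 3 (2.27, adjusted p = 0.0576) or without any 1 of the 4 Sham mice (2.02 to 2.27). Without LJP mouse 1 the log2 fold change of Ifi27l2a was 2.65. Trim30a was 3.66-fold higher (1.87 ± 0.41, adjusted p = 0.0212) and Ifitm3 3.57-fold (1.84 ± 0.48, adjusted p = 0.0466). Irf9 was 2.08-fold higher (1.06 ± 0.27, adjusted p = 0.0452) and Eif2ak2 2.34-fold (1.23 ± 0.29, adjusted p = 0.0316). None of the 6 GTPases was among the 17, with log2 fold changes of 0.58 to 1.31, of which Irgm1 gave 1.06 ± 0.32 (adjusted p = 0.0899), Gbp2 0.94 ± 0.43 (adjusted p = 0.256), Iigp1 0.67 ± 0.59 (adjusted p = 0.599) and Igtp 0.61 ± 0.34 (adjusted p = 0.364). DESeq2 called Gbp3 and Irgm1 higher (DESeq2 adjusted p = 0.0338 and 0.0187), against 5.67% of all genes. In 3 of the GTPases, Igtp, Irgm1 and Iigp1, every LJP mouse lay above every Sham mouse, against 12.9% of all genes.

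Of the remaining members described by mouse, Slfn2 gave 1.31 ± 0.53 (adjusted p = 0.202), Rsad2 1.33 ± 0.43 (0.103), Parp9 1.24 ± 0.37 (0.0861), Ifitm1 1.09 ± 0.57 (0.335) and Ifitm2 0.99 ± 0.51 (0.326), with the adjusted p in parentheses. Irf1 gave 0.79 ± 0.30 (0.173), Ifi35 0.70 ± 0.37 (0.339), Dtx3l 0.69 ± 0.27 (0.177), Stat2 0.41 ± 0.22 (0.347) and Cmpk2 -0.05 ± 0.11 (0.852). The count of 17 changed when 1 mouse was left out. It was 7, 7, 6 and 7 without Sham mouse 1, 2, 3 or 4 (against 1.99%, 2.11%, 2.08% and 2.11% of all genes), 7 without LJP mouse 1 (2.39%), 7 without LJP mouse 3 (1.96%), and 26 without Vehicle mouse 2 (7.77%). Ifi204, Ifi207, Ifit3, Ifi27l2a, Usp18 and Lgals3bp were called in each of these 7 fits.

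Markers of other cells differed between the same mice. The summed CPM of 8 monocyte and macrophage markers was 100 to 105 in Sham, 658, 1440, 292 and 365 in Vehicle, and 201, 148, 347 and 147 in LJP, with 7 of 7 tested markers higher in Vehicle than in Sham. Fn1, which endothelial and other cells also express, made up most of these sums, and the list without it, a sum added after the values were seen, came to 14.8 to 21.5 CPM in Sham, to 201, 338, 63.2 and 111 in Vehicle, and to 64.0, 25.1, 97.1 and 27.1 in LJP. All 7 tested markers had lower values in LJP than in Vehicle (median log2 fold change -1.62), 5 of them at an unadjusted p below 0.05, against 17.4% of all genes. None was called by edgeR at an adjusted p below 0.05, and DESeq2 called 4 lower (Mrc1, Cd163, Chil3 and Fn1), against 9.15% of all genes. The 5 endothelial markers summed to 190 to 205 CPM in Sham, to 504, 1040, 264 and 292 in Vehicle, and to 196 to 239 in LJP; between LJP and Vehicle 4 of 5 were lower at an unadjusted p below 0.05, 0 by edgeR and 4 by DESeq2 at an adjusted one. The 6 neutrophil markers, which the filter on low counts removed, summed to at most 0.272 CPM in Sham, to 159, 39.8, 0.646 and 4.63 in Vehicle, and to at most 0.816 in LJP. Hemoglobin and other red cell markers were also highest in Vehicle mice 1 and 2, at 89.2 and 51.2 CPM in sum. The summed neuronal markers were lowest there, at 4520 and 3550 CPM against 5300 to 6280 in the other injured mice. Rbfox3, Snap25, Syt1 and Tubb3 followed that sum. In Vehicle mouse 1, Gad1 (386 CPM) and Slc17a7 (1690 CPM) did not, and lay within the values of Vehicle mice 3 and 4 and the LJP mice. Of the 5 astrocyte markers, Slc1a2, a glutamate transporter that made up most of their sum, was lowest in Vehicle mice 1 and 2, at 1260 and 1150 CPM against 2160 to 2460 in the other injured mice and 2730 to 3200 in Sham. Aldh1l1 was highest there, at 141 and 168 CPM, and Slc1a3 lay between 376 and 465 CPM in all 12 mice. Vehicle mice 1 and 2 are the mice with the highest Ifitm1, Ifitm2, Ifitm3, Slfn2, Igtp, Irgm1 and Iigp1, and the part of these cells in the members' values was not tested.

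In LJP mouse 1 the 7 microglial markers summed to 847 CPM, beside 504, 852 and 509 in LJP mice 2 to 4, 417, 741, 794 and 829 in Vehicle and 294 to 299 in Sham. Its monocyte and macrophage sum of 201 CPM and its endothelial sum of 218 CPM lay below those of LJP mouse 3 (347 and 239), and its neutrophil sum was 0.727 CPM. LJP mouse 3, with as high a microglial sum, had a member mean of 1.37 against 2.08 in LJP mouse 1. The 9 T and NK cell markers came to 12.7 CPM in LJP mouse 1, of which Cd4 made up 12.1. That sum was the highest of the 8 injured mice, against 3.70 to 8.75 in the others and 19.1 to 25.4 in Sham. Cd3e did not set LJP mouse 1 apart, at 0.136 CPM there and 0.0 to 0.559 CPM in the other injured mice. The part of these cells in the members' values of LJP mouse 1 was not tested. Of the lymphocyte markers, Cd3e was at up to 0.559 CPM and Ncr1 at up to 0.129 CPM. Cd79b of B cells was at up to 0.902 CPM and was higher in Vehicle than in Sham (log2 fold change 2.11, adjusted p = 0.0211). Cd4 was at 19.0 to 25.3 CPM in Sham and 1.85 to 12.1 CPM in the injured mice. Of the plasmacytoid dendritic cell list, Ccr9 and Klk1 stayed at or under 0.570 and 0.227 CPM, and Siglech and Pacsin1, which microglia and neurons also express, were measured in all mice. A trace of airway and lung transcripts, 8.53 to 13.3 CPM in sum in the Sham and Vehicle mice, was lower in all LJP mice, at 0.358 to 0.669 CPM, where Scgb1a1 and Sftpa1 had no count. Scgb1a1, Sftpa1 and Sftpb were among the 4 genes that edgeR called lower in LJP than in Vehicle over all tested genes. The trace divides the LJP mice from both other groups as the treatment does, and its part in the LJP comparisons was not tested.

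**Figure D5:**
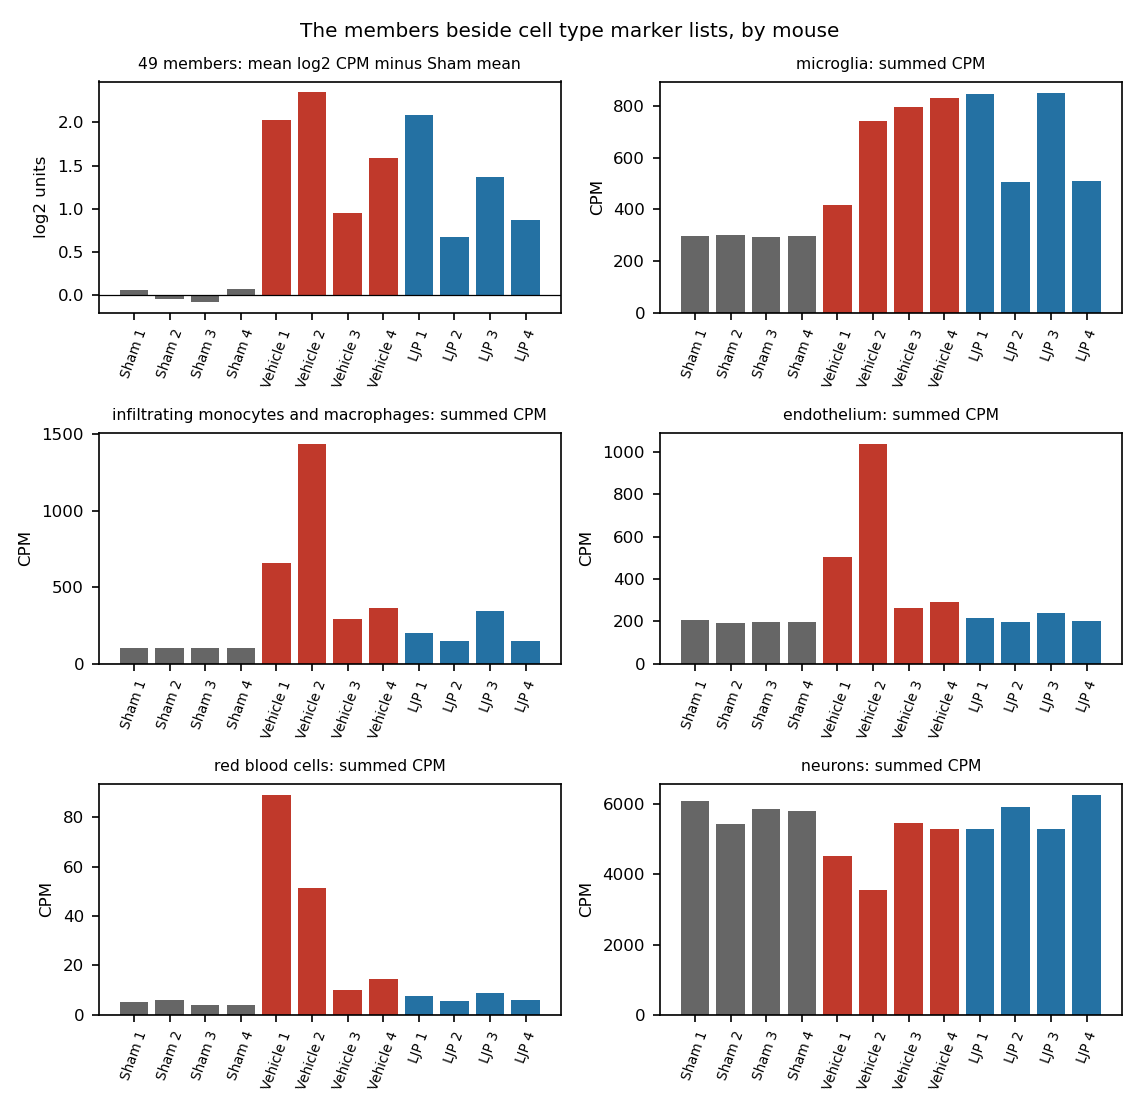
Bars give, for each of the 12 mice, the mean of the 49 members (log2 CPM minus the Sham mean) and the summed CPM of 5 marker lists, coloured by group. Vehicle mice 1 and 2 are high for the members and for monocyte and macrophage, endothelial and red cell markers, while LJP mouse 1 is high for the members (2.08) with a microglial sum (847 CPM) no higher than that of LJP mouse 3 (852 CPM).

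The interferons themselves were almost absent from the reads. Of 21 interferon genes listed, 13 had no count in any mouse, and the other 8 had 15 counts in all, with at most 3 in a mouse. A count of 0 allows up to 0.129 to 0.173 CPM per library, for counting error only. The counts of the lists that follow stand beside 22.7% of all genes higher and 17.3% lower in Vehicle than in Sham. Of 8 receptor and JAK kinase genes tested, 4 were higher in Vehicle than in Sham: Ifnar1 (0.43 ± 0.14, adjusted p = 0.0283), Ifnar2 (1.18 ± 0.19, adjusted p = 0.000812), Ifngr1 (1.24 ± 0.23, adjusted p = 0.00174) and Il10rb (1.47 ± 0.24, adjusted p = 0.000952). Of 6 transcription factors outside the set, 5 were higher, including Irf8 (1.96 ± 0.25, adjusted p = 0.000235), a factor of microglia and macrophages. Of 12 upstream sensors and adaptors 9 were higher and 1 lower, with Tlr7 at 2.73 ± 0.33 (adjusted p = 0.000181) and Sting1 at 2.01 ± 0.29 (adjusted p = 0.000492). Of 10 negative regulators 4 were higher and 1 lower, and Socs3, an inhibitor of JAK signaling that gp130 cytokines also induce, rose by 4.65 ± 0.61 on the log2 scale (adjusted p = 0.000259). None of the genes in these lists was called between LJP and Vehicle by edgeR; at an unadjusted p below 0.05, over these lists and the one that follows, 30 of 89 tested genes were lower and 3 higher, against 17.4% and 12.3% of all genes. DESeq2 called 14 of the 89 lower, against 9.15% of all genes.

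A further list of 66 interferon-induced genes outside the set had 53 tested members, of which 40 were higher in Vehicle than in Sham and 1, Tdrd7, lower, with a median log2 fold change of 1.57. Those shares stand beside 22.7% of all genes higher and 17.3% lower. Between LJP and Vehicle their median was -0.50, edgeR called 0 at an adjusted p below 0.05, 16 were lower and 1 higher at an unadjusted one (17.4% and 12.3% of all genes), and DESeq2 called 6 lower (9.15%). Between LJP and Sham 10 were higher, against 3.85% of all genes. LJP mouse 1 was the highest LJP mouse for 39 of these 53 genes (73.6%), against 23.3% of all tested genes. Vehicle mouse 2 was the highest Vehicle mouse for 40 (75.5%), against 36.0% of all tested genes. Among the receptors and kinases LJP mouse 1 was highest of its group for 3 of 8, among the sensors and adaptors for 5 of 12, among the transcription factors outside the set for 4 of 6, and among the negative regulators for 2 of 10.

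Members with and without an ISRE match in their window were set side by side. The median log2 fold change between Vehicle and Sham was 1.71 in the 21 with a match and 1.49 in the 17 without, and between LJP and Vehicle -0.43 and -0.28. The median ratio of LJP mouse 1 to the mean of the other LJP mice was 2.08 in those with a match and 1.66 in those without. Isg15, with its run of overlapping matches, had a ratio of 4.29, while Irf7, without a match in the window, had one of 4.37. Igtp and Irf1, with a match of either kind, had ratios of 1.13 and 1.14.

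Of the 49 members, 17 share part of their position with another listed gene. Besides the pairs named above, Ifit1 and Ifit3b lie within Ifit1bl1 on the opposite strand, Eif2ak2 shares 2041 bases with the pseudogene Gm6548 on its own strand, Rtp4 meets Masp1, and Isg15 meets the long noncoding RNA Gm46878. Their single values, and those of the near-copies Ifit3 and Ifit3b, are less certain than those of the set. Gbp3 and Gbp7, Ifi204 and Ifi207, and the Oas genes are related genes, and whether they share reads was not tested.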

How the data were processed

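Poly(A) RNA of brain hemispheres of 12 mice was sequenced as paired-end reads from a kit that does not mark strand. The authors deposited raw counts per gene and mouse. Per the labels, featureCounts and DESeq2 were used and GRCm39 and mm10 are both named; 39726 of 39756 gene positions in the table equal those of GRCm38.p6. The aligner, strand setting and handling of shared reads are not given in the sources used here. Total counts per mouse were 17960353 to 22216315; floors and intervals cover counting error only.

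The counts were tested with edgeR 4.0.16 (R 4.3.3), using filterByExpr, TMM factors and its quasi-likelihood F-test, with group as the only term and all 12 mice in 1 model. P-values were adjusted by Benjamini-Hochberg over 17558 genes, and a gene was called at an adjusted p below 0.05. SEs were taken from the F statistic. Log2 CPM used a prior count of 2 and the heatmap a pseudocount of 0.5. No pair of libraries within a group agreed within sampling noise (chi-square per degree of freedom at least 2.56). On simulated counts of Vehicle vs Sham with 200 changed genes, the test recovered 156 and made 11 false calls over 17558 genes. The simulation gave a gene the same spread in all groups. In the data, pairs of Vehicle mice differed more (chi-square per degree of freedom up to 122) than pairs of Sham mice (up to 6.65). The simulated counts therefore do not give the error rate in the data.

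Members, lists, roles, tests and alternatives were chosen with earlier results of these data known. By rule, values by mouse were given for the 3 members of each role with the smallest p in Vehicle vs Sham and the 2 in LJP vs Vehicle, and for any member called lower in Vehicle; others are named where stated. Alternatives were DESeq2 1.42.0, RLE and library-size scaling, no filter, a fit to 2 groups alone, a block for replicate number, other thresholds, and leaving out each mouse. Plots were drawn with matplotlib 3.10.9.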

Additional observations from a re-analysis of the deposited data

Results flagged for a closer look

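Dixon's test, applied to each member in each group of 4 mice, picked out 11 of 147 groups in which a single mouse lay far from the other 3; the value in parentheses is that mouse's gap over the whole range, and chance alone gives about 7.35 such groups. LJP mouse 1 was the high mouse in 7 of them: Ifit3 (0.984), Ifit1 (0.924), Oas3 (0.912), Oasl1 (0.909), Isg15 (0.875), Oas2 (0.870) and Irf7 (0.858). The other 4 were spread over 4 mice. Oas3 in Sham mouse 1 was lowest (0.946), with no count there and 1 count in each other Sham mouse. Ifitm3 in Sham mouse 4 (0.890), Ifit2 in Sham mouse 2 (0.835) and Dtx3l in Vehicle mouse 2 (0.844) were highest.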

How the results depend on the processing

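Between Vehicle and Sham, the count of members that rose stayed within 1.5 times of 45 under every alternative (37 to 46 when a mouse was left out). The count that fell was 0, but 1 (Cmpk2) with the replicate block (15.1% of all genes), 1 at an adjusted p below 0.1 (22.8%), and 0 to 1 when a mouse was left out. Between LJP and Vehicle the count lower was 0, but 3 without the filter on low counts (Irf1, Ifitm1 and Ifitm2; 1.8% of all genes), 7 with DESeq2 (9.15%), 7 at an adjusted p below 0.1 (10.2%), 5 by the study's thresholds (Ifitm1, Ifitm2, Ifitm3, Irf1, Slfn2; 5.89%), and 0 to 12 when a mouse was left out. Between LJP and Sham the count higher was 17, but 28 with DESeq2 (5.67% of all genes), 38 with only the 2 groups compared (12.1%; 46 members passed the filter), 10 with the replicate block (2.31%), and 6 to 26 when a mouse was left out. The cause of these shifts was not tested. When a mouse was left out, the LJP vs Vehicle log2 fold change ranged from -0.68 to 0.49 for Irf7, from -0.73 to 0.24 for Ifi27l2a and from -0.60 to 0.11 for Usp18, and Irf7 gave -0.04 with the replicate block. For the other 21 members given by mouse under the naming rule no sign changed in these fits; Ifit3, Oas3 and Isg15 were not among them. Mice with the same number did not deviate together (correlations of -0.322 to 0.114), so the numbers were not taken as pairs. Depth limits Oas3, Mx1, Oasl1, Ifi204, Ifi207 and Zbp1 in Sham mice, which had at most 8 counts in any of them.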
